A study of Mus musculus with 4 samples.

Results

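Transcripts of 10 genes linked to plasmacytoid dendritic cells were followed through γδ T cell libraries that did or did not express a PLZF reporter. The genes were Siglech, Spib, Tlr7, Tlr9, Pld4, Plac8, Lair1, Mpeg1, Flt3 and Nucb2, and each matched 1 locus among the 46021 genes of the deposited tables. They were chosen because earlier values from these libraries showed them higher in PLZF- than in PLZF+ cells. The contrast of the subsets is therefore a description for them, with no test.

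All cells came from epididymal adipose tissue of male C57Bl/6 mice aged 16 to 22 weeks that carried PLZF-GFP, a green fluorescent reporter of the transcription factor PLZF (gene Zbtb16). There were 2 libraries of sorted PLZF- γδ T cells (columns A6 and B6) and 2 of sorted PLZF+ γδ T cells (columns A7 and B7). Each library was made by SMART-seq2 from a pool of 10 mice, and no label says whether a PLZF+ and a PLZF- pool shared mice. The column codes are named but not explained in the labels.

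Plasmacytoid dendritic cells are rare blood-borne cells known for releasing large amounts of type I interferon when they take up viral nucleic acid. They sense RNA and DNA inside endosomes through TLR7 and TLR9, develop under FLT3 ligand, and depend on the transcription factors TCF4 and SPIB. Several of their genes are also active in other cells: Spib, Tlr7, Tlr9 and Pld4 in B cells, Flt3 in conventional dendritic cells and progenitors, Mpeg1 in macrophages, and Plac8 and Lair1 in many leukocytes.

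PLZF- libraries were shallower, with an estimated 744569 (A6) and 981885 (B6) reads outside the rRNA precursor against 1837511 (A7) and 2035066 (B7). One read was worth 1.69, 1.22, 0.619 and 0.558 normalized counts in A6, B6, A7 and B7. Zbtb16 had 310 and 699 normalized counts in A6 and B6 and 2899 and 2921 in A7 and B7, which follows the sort. The CD3 genes of T cells were present in every library. Of the γδ receptor genes listed, Trdc, Trdv4, Tcrg-C1, Tcrg-C2, Tcrg-C4 and Tcrg-V4 were not found. The receptor locus found, that of Tcrg-C3, Tcrg-V5, Tcrg-V6 and Trgj2, had 440 and 488 normalized counts in A6 and B6. In A7 and B7 it had 2511 and 2835. With Cd3d, Cd3e, Cd3g and Cd247 it made 5 loci, which summed to 1201 and 1685 normalized counts in A6 and B6 and 4882 and 5428 in A7 and B7. With Cd163l1, a scavenger receptor of γδ T cells that the list also holds, the sums were 1599, 2356, 12318 and 12068. In the limma fit over all genes, 2.52% of the genes tested were called higher in PLZF+ cells and 4.72% lower. All 6 loci were higher in PLZF+ cells in the fit over all genes, 4 without A6, 3 without A7, 2 without B7, 4 with no filter and 2 with no trend or robust fit.

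The stretches of DNA just upstream of the RefSeq start sites of Siglech, Spib and Tlr9 are shown. These genes had reads in both PLZF- libraries and none in either PLZF+ library. Tlr7 had the same pattern, but no such stretch was available for it. They are the 250 bases before the RefSeq start site on GRCm38.p6 (the assembly of mm10), 5′ to 3′ along the gene. Capitals mark CANNTG, the E-box bound by TCF4 and its relatives, and GAGGAA, a core letter run of SPIB and PU.1 sites, each on either strand. Siglech lies at chr7:55767934-55768183 on the plus strand, Spib at chr7:44532072-44532321 on the minus strand, and Tlr9 at chr9:106222348-106222597 on the plus strand. The deposited Siglech locus starts at 55768065, inside the Siglech stretch. The marked Siglech runs that begin 56 and 20 bases before the RefSeq start therefore lie within that locus.
Siglech: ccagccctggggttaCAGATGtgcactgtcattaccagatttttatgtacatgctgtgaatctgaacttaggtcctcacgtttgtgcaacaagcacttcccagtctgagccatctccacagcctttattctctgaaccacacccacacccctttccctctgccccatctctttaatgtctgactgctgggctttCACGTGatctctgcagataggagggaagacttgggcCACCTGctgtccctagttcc
Spib: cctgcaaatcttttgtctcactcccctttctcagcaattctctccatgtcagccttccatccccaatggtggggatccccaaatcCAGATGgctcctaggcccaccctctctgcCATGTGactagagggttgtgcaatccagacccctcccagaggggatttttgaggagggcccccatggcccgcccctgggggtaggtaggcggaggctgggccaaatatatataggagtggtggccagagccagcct
Tlr9: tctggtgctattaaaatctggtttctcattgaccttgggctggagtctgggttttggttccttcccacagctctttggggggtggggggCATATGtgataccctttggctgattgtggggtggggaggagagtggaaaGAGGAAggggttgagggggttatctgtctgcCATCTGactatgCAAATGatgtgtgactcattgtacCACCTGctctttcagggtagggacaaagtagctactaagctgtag
Siglech held 3 matches to CANNTG, Spib 2 and Tlr9 4, and of the 3 only Tlr9 held GAGGAA, 112 bases before its start. Such a stretch was listed in RefSeq for 9 of the members, at 10 start sites. CANNTG was found at 8 of the 10 start sites, against 66.2% of 32851 promoters of the same length, and GAGGAA at 4 of the 10 against 23.3%. A match is a run of letters and not a measured site.

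Siglech, which encodes a sialic acid-binding surface receptor typical of mouse plasmacytoid dendritic cells, was clearly present in PLZF- cells and had no reads in PLZF+ cells. Its locus (chromosome 7, 55768065 to 55779393, mm10) had 145 normalized counts in A6 and 90.2 in B6, from 86 and 74 reads, and 0 in A7 and B7. The subsets did not overlap, and PLZF+ libraries were at least 66.6-fold lower against 3 reads per library, which are 1.86 normalized counts in A7 and 1.67 in B7. In libraries from many cells, fewer cells of a type and less RNA per cell cannot be told apart.

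Flt3 (chromosome 5, 147330741 to 147401917), the receptor tyrosine kinase for FLT3 ligand, was detected mainly in A6. It had 89.4 normalized counts in A6, 14.6 in B6, 1.24 in A7 and 0 in B7. The ratio of PLZF- to PLZF+ reads per depth was 78.4 (exact 95% counting interval 20.8 to 661), with 2 reads in the PLZF+ subset. An annotated antisense gene, Gm26597, overlaps this locus, and the strand setting of the counting is not given in the sources used here. Lair1 (chromosome 7, 4007073 to 4063204), an inhibitory receptor for collagen, had 42.2 and 8.54 normalized counts in A6 and B6 and 1.24 and 0 in A7 and B7. Its ratio was 38.6 (9.84 to 332), again from 2 PLZF+ reads. For both receptors A6 stood well above the other libraries.

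Spib (chromosome 7, 44525995 to 44532071), an ETS-family transcription factor of plasmacytoid dendritic and B cells, had 38.8 and 23.2 normalized counts in A6 and B6 and 0 in A7 and B7. That is at least 17.5-fold lower in PLZF+ libraries.

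The endosomal sensor genes were present at few reads. Tlr7 (X chromosome, 167304931 to 167330537), a receptor for single-stranded RNA, had 35.4 normalized counts in A6 and 4.88 in B6, from 21 and 4 reads, and 0 in A7 and B7 (at least 11.4-fold lower in PLZF+, and 2.76-fold from B6 alone). Tlr9 (chromosome 9, 106222598 to 106226876), a receptor for unmethylated CpG DNA, had 18.6 and 6.10 normalized counts in A6 and B6, from 11 and 5 reads, and 0 in A7 and B7 (at least 6.98-fold lower, and 3.45-fold from B6 alone). Both were seen only in PLZF- libraries, and their B6 values rest on 4 and 5 reads. Pld4 (chromosome 12, 112760655 to 112768986), an endolysosomal nuclease that trims the nucleic acids these receptors sense, had 50.6 and 34.1 normalized counts in A6 and B6 and 7.43 and 0 in A7 and B7. Its ratio was 11.7 (6.19 to 23.8), and all 12 PLZF+ reads lay in A7.

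Mpeg1 (chromosome 19, 12460779 to 12465285), which encodes the pore-forming protein perforin-2 of phagocytes, had 132 normalized counts in A6, 34.1 in B6, 16.7 in A7 and 0 in B7. B6 thus lay closer to PLZF+ library A7 than to A6, and the ratio of the subsets was 9.47 (6.16 to 15.0). Plac8 (chromosome 5, 100553727 to 100572205), a small cysteine-rich protein, had 60.7 and 19.5 normalized counts in A6 and B6 and 3.72 and 1.12 in A7 and B7, a ratio of 15.7 (7.39 to 38.2). It was the only member besides Nucb2 with reads in B7. With A6 left out, the ratio of the subsets was 4.31 for Mpeg1, 8.31 for Plac8, 9.69 for Pld4, 14.5 for Lair1 and 24.9 for Flt3.

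Nucb2 went against the label of the group. This gene (chromosome 7, 116504369 to 116540588) encodes a calcium-binding protein that is the precursor of nesfatin-1. It had 3.37 normalized counts in A6 and 29.3 in B6, from 2 and 24 reads, and 14.2 in A7 and 1.67 in B7, from 23 and 3 reads. The subsets overlapped, with A6 below A7, and the difference in log2(normalized count + 1) was -0.85 (PLZF+ minus PLZF-). It was 0.55 without B6, 0.41 without B7 and -2.25 without A6, so single libraries set its direction.

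**Figure D1:**
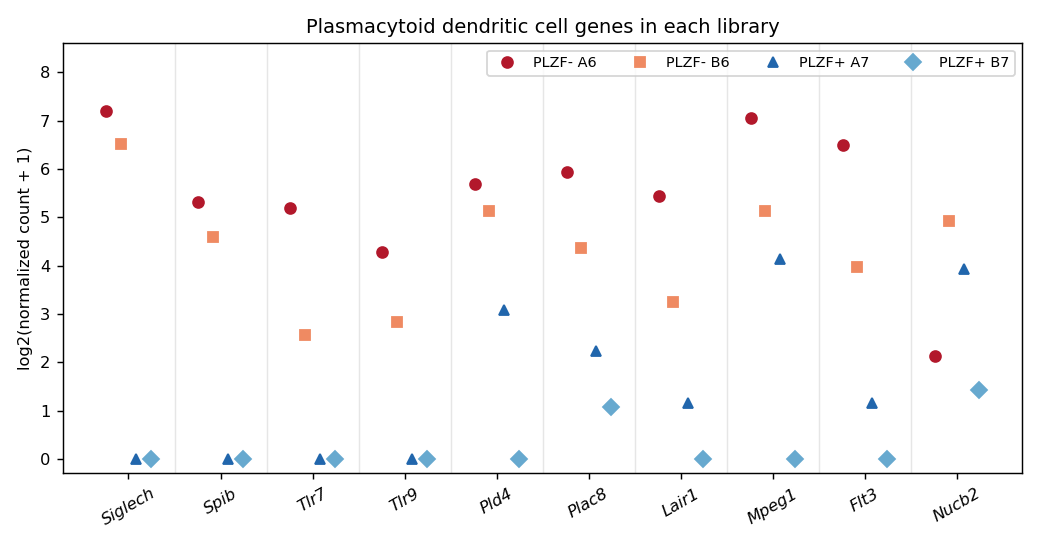
Level of each of the 10 genes in each library, as log2(normalized count + 1), with 1 point per library. PLZF- libraries A6 and B6 lie above both PLZF+ libraries for 9 genes, and the subsets overlap for Nucb2.

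Both PLZF- libraries lay above both PLZF+ libraries for 9 of the 10 members, as they did for 20.8% of the 14804 genes above 0 in any library and 26.9% of the 8975 tested. Siglech, Spib, Tlr7 and Tlr9 were at 0 in both PLZF+ libraries and above 0 in both PLZF- libraries, as were 2.11% of the genes above 0 and 0.691% of those tested. The members were picked on this contrast, so nothing follows from these counts. The median difference over all 10 was -3.87 in log2(normalized count + 1), and -0.02 over the 8975 genes tested, those with a mean of at least 10 normalized counts. That filter keeps 9 members and leaves out Tlr9.

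Per transcript length (FPKM), the order of the members differed between the PLZF- libraries. In A6, Plac8 was highest at 90.0 FPKM, followed by Siglech (37.9), Mpeg1 (32.2), Pld4 (16.8), Flt3 (14.7), Spib (8.63), Lair1 (8.21), Tlr7 (5.67), Tlr9 (3.23) and Nucb2 (1.46). In B6, Siglech (31.4 FPKM) and Plac8 (29.5) led, followed by Nucb2 (11.8), Pld4 (11.4), Mpeg1 (8.02), Spib (5.17), Flt3 (2.37), Lair1 (1.47), Tlr9 (1.06) and Tlr7 (0.79). Plac8 made up 41.1% of the members' summed FPKM in A6 and 28.7% in B6, and Siglech 17.3% and 30.5%. Neighbours in these orders rest on single libraries, so no spread between replicates ranks them within one library. In the PLZF+ libraries the highest members were Nucb2 (5.63 FPKM) and Plac8 (5.21) in A7, and Plac8 (1.64) and Nucb2 (0.72) in B7.

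The 10 genes summed to 219 and 103 FPKM in A6 and B6 and to 16.0 and 2.36 FPKM in A7 and B7. Set against Cd3d, Cd3e and Cd3g of the same library, that sum was 62.9% and 16.6% in A6 and B6 and 1.40% and 0.19% in A7 and B7. Siglech alone came to 10.9% of the CD3 sum in A6 and 5.05% in B6. The CD3 sum itself was 348 and 620 FPKM in A6 and B6 and 1147 and 1239 FPKM in A7 and B7, so both parts of these shares differed between subsets.

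**Figure D2:**
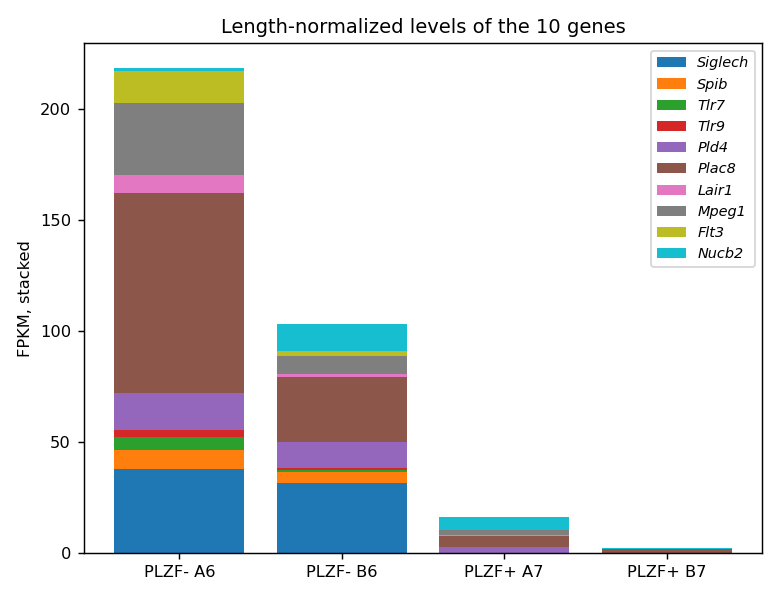
FPKM of the 10 genes stacked for each library, with 1 bar per library and 1 colour per gene. The bars reach 219 FPKM in A6, 103 in B6, 16.0 in A7 and 2.36 in B7, and the Plac8 and Siglech segments trade places as the largest between A6 and B6.

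The members did not keep one proportion between A6 and B6. The ratio of A6 to B6 normalized counts was 7.26 for Tlr7 (exact 95% counting interval 2.45 to 29.1), 6.11 for Flt3 (3.22 to 12.6), 4.94 for Lair1 (2.08 to 13.5) and 3.85 for Mpeg1 (2.47 to 6.17). It was 3.11 for Plac8 (1.68 to 6.01) and 3.04 for Tlr9 (0.97 to 11.2). Siglech (1.61, 1.16 to 2.22), Spib (1.67, 0.87 to 3.25) and Pld4 (1.48, 0.86 to 2.57) lay nearer to 1, and Nucb2 was lower in A6 (0.12, 0.013 to 0.46). The intervals of Tlr7, Flt3 and Mpeg1 lie wholly above that of Siglech, and that of Nucb2 wholly below all others. These intervals cover counting error only, since PCR copies are not independent molecules, and with 1 library a side there is no test.

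**Figure D3:**
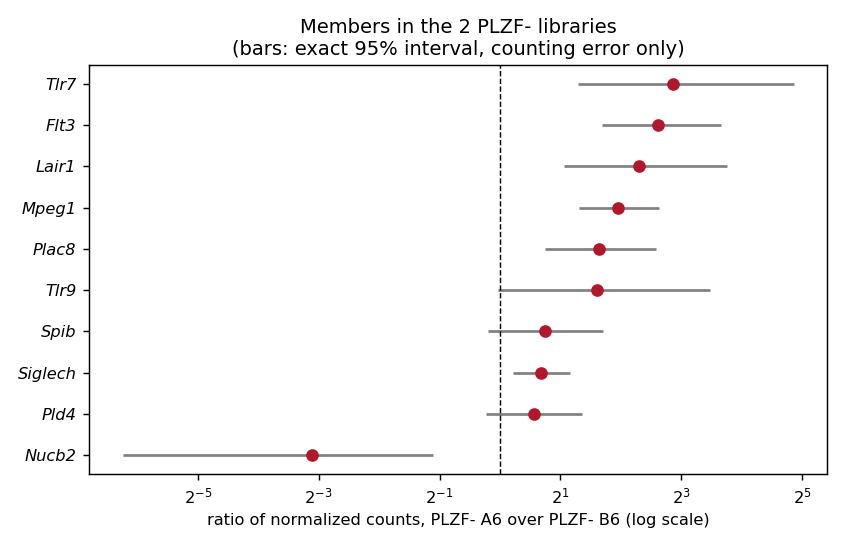
Ratio of normalized counts in PLZF- library A6 over PLZF- library B6 for each of the 10 genes, on a log axis, with exact 95% counting intervals as bars and a dashed line at 1. Nucb2 lies at 0.12, Siglech at 1.61 and Tlr7 at 7.26.

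Other gene groups were compared between A6 and B6 in the same way. Of the members, 9 of 10 were higher in A6, with a median log2 ratio of 1.62. Among tested genes above 0 in both libraries, 4536 of 8802 were higher in A6 (median 0.03). The median was 0.75 for conventional dendritic cell and MHC class II genes (9 of 14 higher in A6), 0.93 for mast cell and granulocyte genes (5 of 6) and 0.33 for natural killer genes (8 of 12). It was 0.49 for group 2 innate lymphoid genes (6 of 11) and -0.54 for the 6 loci of CD3, γδ receptor and Cd163l1 (0 of 6). Among lists described below, it was 0.44 for further plasmacytoid dendritic cell genes (21 of 27) and 1.47 for αβ T cell genes (4 of 5). For macrophage and monocyte genes it was 0.88 (4 of 5) and for plasma cell genes 0.47 (3 of 5). B cell genes were at -0.92 (1 of 3) and adipocyte, stromal and endothelial genes at -0.20 (1 of 3). In the PLZF+ subset, 6 of the 10 members were higher in A7 than in B7 and 0 were lower. Among the 8975 tested genes, 4606 were higher in A7 and 4306 lower. The counts were 6 and 0 for mast cell and granulocyte loci and 9 and 1 for group 2 innate lymphoid genes. They were 8 and 8 for the further plasmacytoid dendritic cell genes, and 1 and 5 for the loci of CD3, γδ receptor and Cd163l1.

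Further genes known from plasmacytoid dendritic cells were lower in PLZF+ cells for 7 of the 14 that could be tested. The list of 33 was drawn up from their known roles, but with earlier results of these data known, and all 33 were found. The 7 were called lower and 0 higher by limma (also 0 higher at an unadjusted p under 0.05), against 4.72% of tested genes called lower and 2.52% called higher. The median difference of the 14 was -1.95, and -0.02 over all tested genes. Of the 7, all but Irf8 had a PLZF+ mean under 10 normalized counts and passed the filter through the PLZF- libraries. The share called is therefore a description and not an independent check. Counts depended on single libraries: 1 was lower without A6, 2 without B6, 4 without B7 and 5 without A7. They were also 3 with no trend or robust fit, 3 at a minimum mean of 50 and 4 by FPKM.

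Irf8, a transcription factor of dendritic cell development shared with natural killer cells, measured 241 and 159 normalized counts in A6 and B6 and 4.95 and 16.2 in A7 and B7 (log2 difference -4.28 ± 0.59, SE, limma adjusted p = 0.00054, and 0.060 with no trend or robust fit). Tcf4, the E protein that specifies plasmacytoid dendritic cells, had 101 and 74.4 against 0 and 5.58 (-5.10 ± 0.98, adjusted p = 0.0063, 0.16 without A6, 0.069 without B6, 0.084 by FPKM and 0.0997 with no trend or robust fit). The locus of the homing receptor Ccr9, shared with AK038272 and Gm17200, had 261 and 106 against 9.91 and 2.23 (-4.82 ± 0.71, adjusted p = 0.00091, 0.069 without A6 and 0.074 with no trend or robust fit). Atp1b1, a sodium pump subunit, had 97.8 and 153 against 0 and 0.57 (-6.62 ± 0.96, adjusted p = 0.00084, 0.060 without A6 and 0.061 without B6). For these genes both PLZF- libraries lay above both PLZF+ libraries.

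The other 3 called genes were Lifr, Cybb and Zeb2, named after their values were seen. Lifr, a receptor chain for leukemia inhibitory factor, and Cybb, an oxidase subunit of phagocytes, had 0 reads in both PLZF+ libraries (limma adjusted p = 0.042 and 0.021). Zeb2, whose locus also holds Mir5129, fell by 2.55 in log2 (adjusted p = 0.033). Without A6 their adjusted p was 0.38, 0.30 and 0.20, and without B6 0.098, 0.086 and 0.061. Without B7 it was 0.12, 0.054 and 0.27, and Lifr and Zeb2 also lost their calls without A7 (0.11 and 0.12). By FPKM Lifr was at 0.19 and Zeb2 at 0.21, and Zeb2 was at 0.095 with no filter and 0.089 with no trend or robust fit. At a pseudocount of 0.25, Lifr was at 0.19 and Cybb at 0.13.

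Not every gene of the list followed. Bst2, a surface antigen that interferon also induces, had 37.1 and 29.3 normalized counts in A6 and B6 and 21.1 and 31.8 in A7 and B7, so the subsets overlapped. Ly6d, a surface marker of precursors, had 21.9 in A6 and 0 in the other 3 libraries. Bcl11a, a transcription factor of these cells and B cells, had 16.9 and 15.9 in A6 and B6 and 0 in both PLZF+ libraries, under the filter. Over all 33, both PLZF- libraries lay above both PLZF+ libraries for 21 and the reverse held for 2, against 20.8% and 21.4% of genes above 0 in any library (26.9% and 24.2% of those tested). Bst2, Ly6d and Bcl11a were picked after their values were seen.

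**Figure D4:**
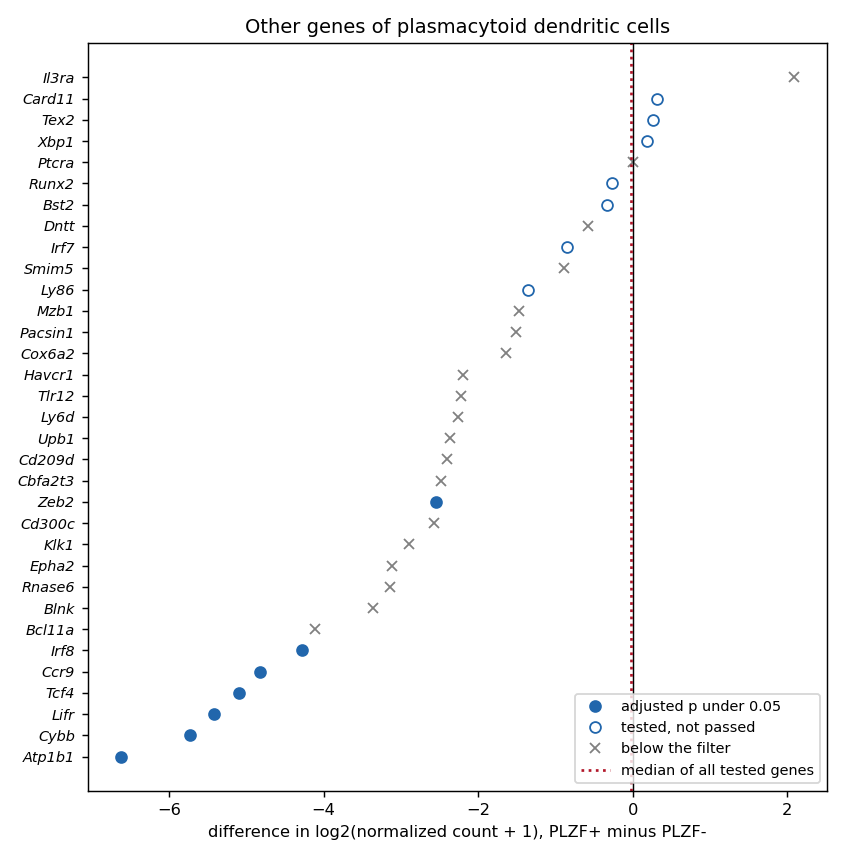
Difference in log2(normalized count + 1), PLZF+ minus PLZF-, for 33 other genes of plasmacytoid dendritic cells, with filled points for an adjusted p under 0.05, open points for tested genes that did not pass and crosses for genes below the filter. The 7 filled points lie between -6.62 and -2.55, and the dotted line marks the median of all tested genes at -0.02.

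The machinery around the endosomal receptors was mixed. Of 25 pathway genes, among them the trafficking chaperone Unc93b1, the adaptor Myd88 and the interferon regulators Irf5 and Irf7, 21 were tested. By limma 0 were lower (5 at an unadjusted p under 0.05) and 2 were higher in PLZF+ cells, with a median log2 difference of -0.16. Over all tested genes 4.72% were called lower and 2.52% higher at an adjusted p under 0.05, and no share is given at the unadjusted threshold. Both PLZF- libraries lay above both PLZF+ libraries for 10 of the 25 and the reverse held for 5. These shares were 20.8% and 21.4% among genes above 0 in any library, and 26.9% and 24.2% among those tested. Unc93b1 had 125 and 105 normalized counts in A6 and B6 and 63.2 and 45.8 in A7 and B7 (adjusted p = 0.15), and Ctsl, an endolysosomal protease, had 62.4 and 15.9 against 3.72 and 1.67 (adjusted p = 0.12). Ctsl and Unc93b1 were picked after their values were seen. The 2 called genes were Irak3, an inhibitor of the pathway (15.2 and 42.7 in A6 and B6, 138 and 110 in A7 and B7, log2 difference 2.23 ± 0.53, adjusted p = 0.021), and the locus of Hsp90b1, the endoplasmic reticulum chaperone of these receptors, and Gm15344 (0.67 ± 0.18, adjusted p = 0.045). The adjusted p of Irak3 was 0.099 with A6 left out, 0.35 with A7 and 0.25 with B7 left out, 0.099 with no filter, 0.072 by FPKM and 0.18 with no trend or robust fit. Hsp90b1 lost its call without any 1 of the 4 libraries (0.058 to 0.53), at a pseudocount of 0.25 (0.054), with no filter (0.10), by FPKM (0.12) and with no trend or robust fit (0.43). Tlr8 and Tlr13 were at 0 in every library. All 11 type I interferon genes listed, Ifnb1 and 10 Ifna genes, were at 0 in every library as well.

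Of the signalling partners of the receptors, Tyrobp, which encodes the adaptor DAP12 that carries the signal of Siglec-H, had 258 and 129 normalized counts in A6 and B6 and 2.48 and 0 in A7 and B7 (-6.62 ± 0.82, limma adjusted p = 0.00026, and 0.072 without A6). Tyrobp also serves natural killer receptors. Fcer1g, a related adaptor, had 170 and 150 against 9.29 and 0 (-5.65 ± 0.93, adjusted p = 0.0021, 0.099 without A6, 0.054 without B6, 0.059 by FPKM and 0.12 with no trend or robust fit). Flt3l, the ligand of FLT3, had 70.9 and 42.7 against 61.9 and 60.8 and did not pass (adjusted p = 0.89). Ptpn6, the phosphatase SHP-1 used by LAIR1, rose by 1.50 ± 0.28 in PLZF+ cells (adjusted p = 0.0048, 0.10 without A7, 0.17 without B7 and 0.17 with no trend or robust fit). Kit, a receptor tyrosine kinase related to FLT3, had 278 and 248 against 18.0 and 12.3 in the locus it shares with AK047175 (-4.05 ± 0.43, adjusted p = 7.3e-05). Of the 8 tested genes in this group, 3 were lower and 1 higher, against 4.72% and 2.52% of all tested genes. Tyrobp and Fcer1g had PLZF+ means of 1.24 and 4.65 normalized counts and passed the filter through the PLZF- libraries. Their calls are therefore no independent check.

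Markers of other cells moved with the members, and their part in the members' levels was not tested. Of 11 tested conventional dendritic cell and MHC class II loci, 3 were lower in PLZF+ cells (H2-Aa, Itgax and Cd74) and 0 higher by limma. Over all tested genes 4.72% were called lower and 2.52% higher, at an adjusted p under 0.05. At an unadjusted p under 0.05, 9 of the 11 were lower and 0 higher, with no share over all genes given at that threshold. The median log2 difference of the 11 was -3.58. Itgax had a PLZF+ mean of 4.95 normalized counts and passed the filter through the PLZF- libraries, so its call is no independent check. Both PLZF- libraries lay above both PLZF+ libraries for 12 of the 15 loci found, and the reverse held for 0. Among genes above 0 in any library these shares were 20.8% and 21.4%. The list summed to 1508 and 829 normalized counts in A6 and B6 and 205 and 63.5 in A7 and B7. Without A6 each of the 3 calls was lost (adjusted p 0.080, 0.20 and 0.17), and those of Itgax and Cd74 also without B7 (0.057 and 0.085). Itgax was at 0.0501 without B6. With no trend or robust fit H2-Aa, Itgax and Cd74 were at 0.12, 0.15 and 0.19, and with no filter Itgax and Cd74 were at 0.069 and 0.081. The locus of H2-Ab1 and H2-Eb1, the highest of the list in PLZF- cells, did not pass (624 and 213 against 72.5 and 5.02, adjusted p = 0.24). With the letter of the column code as a term, 6 loci of the list were lower, this locus among them. That fit leaves little spread between replicates to measure, so its calls rest mainly on spread borrowed from other genes. Batf3 of the list was at 0 in every library.

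Most of the natural killer and group 2 innate lymphoid loci tested were lower in PLZF+ cells as well, with median log2 differences of -6.08 and -3.32. The shares called over all tested genes were 4.72% lower and 2.52% higher. Of 11 tested natural killer loci 10 were lower (5 without A6), Irf8 and Tyrobp among them, and the list summed to 3720 and 3250 normalized counts in A6 and B6 and 133 and 63.1 in A7 and B7. Ncr1, the receptor NKp46, had 693 and 694 against 3.72 and 3.91. The called natural killer loci other than Irf8, Gzmb and the locus of Klrb1c had PLZF+ means under 10 normalized counts. Those loci, and Klrg1 of the group 2 list, passed the filter through the PLZF- libraries. Their calls are therefore a description and not an independent check. Of 8 tested group 2 innate lymphoid genes 7 were lower (2 with no trend or robust fit), with sums of 7559 and 5524 against 2513 and 2593, of which Rora, which did not pass, made up 3082, 2190, 2156 and 2357. Ptgdr2 of that list, under the filter, went the other way, with 0 in A6 and B6 and 8.05 and 7.27 in A7 and B7. Of 5 tested mast cell and granulocyte loci 1, Kit, was lower (3 without A7 and 5 with the letter of the column code as a term), and the list summed to 1063 and 545 against 334 and 49.7. The neutrophil genes S100a8, S100a9 and Csf3r and the eosinophil genes Prg2 and Epx were at 0 in every library.

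Of 12 listed B cell genes 8 were at 0 in every library, among them Ms4a1, Cd79a, Pax5, Ebf1 and Cd22. Cd79b, a chain of the B cell receptor, had 1.69 and 7.32 normalized counts in A6 and B6 and 33.4 and 29.6 in A7 and B7 (limma adjusted p = 0.13, and 0.046 without B6). Fcrla, a B cell Fc receptor-like protein, had 5.06 and 3.66 in A6 and B6, from 3 reads each, and 0 in A7 and B7. The list summed to 79.3 and 141 normalized counts in A6 and B6 and 928 and 803 in A7 and B7, nearly all from Blk, a kinase that IL-17-producing γδ T cells also use (69.2 and 130 against 893 and 773, higher in PLZF+ cells with adjusted p = 3.7e-05, and 0.058 with no trend or robust fit). Jchain, the joining chain of secreted antibodies that plasmacytoid dendritic cells also transcribe, had 584 and 257 normalized counts in A6 and B6 and 0 in A7 and B7 (limma adjusted p = 1.5e-05). It passed the filter through the PLZF- libraries, so its call is a description and not an independent check. The plasma cell gene Tnfrsf17 was at 0 in every library, and Sdc1 was higher in PLZF+ cells (11.8 and 12.2 against 105 and 140, adjusted p = 0.0017, 0.057 without A7 and 0.13 without B7). The plasma cell list summed to 678 and 340 against 315 and 241.

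Of 19 macrophage and monocyte loci, 11 were at 0 in every library, among them Mrc1, C1qa, C1qb, C1qc and Mertk. Cd68, a lysosomal protein of macrophages, had 22.0 normalized counts in B6 and 0 elsewhere, and Fcgr3, an Fc receptor that natural killer cells also use, had 13.5 and 7.32 in A6 and B6 and 0 in A7 and B7. Csf1r had 0.56 normalized counts in B7 and 0 elsewhere, and Lyz2 had 20.2 and 6.10 in A6 and B6 and 1.24 and 0 in A7 and B7. The list summed to 1542 and 1373 against 2096 and 2378, nearly all from Ccr2, a chemokine receptor that γδ T cells also use. Of 6 αβ T cell loci 2 were tested and 0 passed (0 at an unadjusted p under 0.05), with sums of 128 and 69.5 against 146 and 106. Most of the sums came from Cd5 and the merged locus of Trac (67.5 and 35.4 against 92.3 and 89.8). Cd4 (13.5 and 4.88), Cd8a (11.8 and 1.22) and Cd8b1 (1.69 and 14.6), all under the filter, were at 0 in A7 and B7. Trbc1 and Trbc2 were not found. Of 13 adipocyte, stromal and endothelial loci, 7 were at 0 in every library, Adipoq, Dcn and Col1a1 among them, and the list summed to 132 and 160 against 165 and 155.

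**Figure D5:**
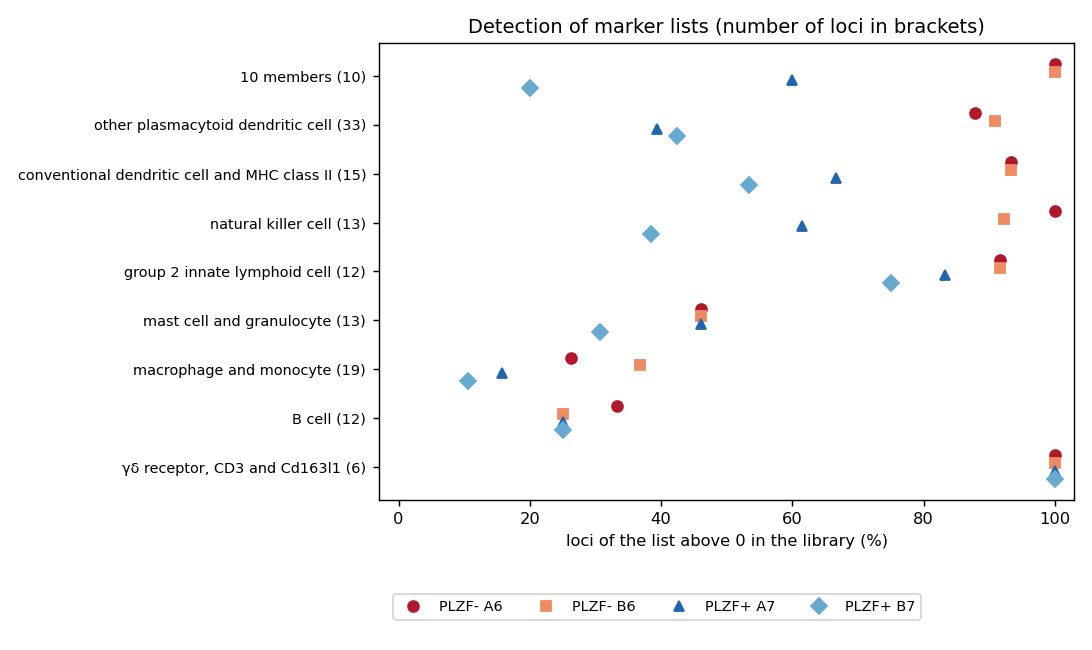
Share of the loci of each list that were above 0 in each library, in percent, with 1 point per library and the number of loci in brackets. Of the 10 members, 10 were above 0 in A6 and in B6, 6 in A7 and 2 in B7, while the loci of CD3, γδ receptor and Cd163l1 were above 0 in all 4 libraries.

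The genes whose pattern over the 4 libraries was nearest to the mean of the members were found by the Euclidean distance between centred log2(normalized count + 1) profiles. The nearest 6 were Tex15 (distance 0.075), Zfp683 (0.37), Patj (0.41), Cd200r4 (0.57), Cyp11a1 (0.60) and Cpq (0.62). Tex15 had 42.2 and 18.3 normalized counts in A6 and B6 and 1.86 and 0 in A7 and B7. Zfp683, which encodes the transcription factor Hobit of tissue-resident lymphocytes, had 84.4 and 34.1 against 4.95 and 0.56. The members themselves lay 0.68 (Plac8) to 4.28 (Nucb2) from that mean, with Siglech at 3.02, so the mean profile stands for Plac8 and Lair1 (0.83) better than for Siglech.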

How the data were processed

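Alignment and quantification used HISAT 0.1.6, SAMtools 1.2, Cufflinks 1.2 and Cuffdiff with the mm10 build, per the submitters' processing notes. The annotation is not given in the sources used here, nor is the strand setting. Cuffnorm normalized counts per locus were deposited by the authors, which are a signal of estimated reads divided by a factor per library, beside a deposited table of FPKM. The authors' own comparison table was not used.

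Symbols were checked for overlap with GENCODE M21 (599 refused), and overlapping loci of one name were summed (46799 loci, 46021 genes). The rRNA precursor Rn45s (0% to 33.2% of a library, listed at 0 in B7) and loci with no gene name (2.54% to 3.22% of the remainder) were left out. The value of 1 read was the commonest value above 0 in a library. Of values up to 50 reads, 93.8% to 95.2% lay within 0.05 of a whole number, too few for a count test, and all values of the members did.

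Genes with a mean of at least 10 normalized counts (8975) were fitted with limma 3.58.1 in R 4.3.3 (trend and robust) after log2 transformation with a pseudocount of 1. Tests were two-sided, p-values were adjusted by the Benjamini-Hochberg method over all genes fitted, and the threshold was 0.05. In PLZF+ cells 424 were lower and 226 higher. Fold changes on that scale understate low genes. P-values of the main fit measure the spread between pools of mice, moderated by that of all genes. With 1 library left out, 1 subset has no replicate, and the letter term leaves little replicate spread. P-values and calls of those fits rest largely on spread borrowed from other libraries and genes. Ratios of reads carry exact (Clopper-Pearson) 95% intervals, and bounds use 3 reads per library. Promoter sequences are from RefSeq on GRCm38.p6, with 9 of 10 members matched. Tables and figures were made in Python 3.11.15 with matplotlib 3.10.9, scipy 1.17.1, numpy 2.4.6 and pandas 2.3.3.

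The members and all gene lists were chosen with earlier results of these data known. Named genes are all members, up to 4 called genes of each other list, the 3 highest of each marker list in PLZF- cells, and the 6 nearest in pattern, from which the text takes those a result turns on. Genes named as absent, and others outside this rule, were picked after their values were seen. Alternatives were a pseudocount of 0.25 or 4, keeping all genes or those with a mean of 50, equal totals, median-ratio factors, FPKM, a fit with no trend or robust step, each library left out, the letter of the column code as a term, and loci not summed.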

Additional observations from a re-analysis of the deposited data

How the results depend on the processing

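Of 8975 genes, 424 were lower and 226 higher in PLZF+ cells. These counts were 253 and 110 with no filter, 147 and 26 with no trend or robust fit, and 644 and 414 with the column letter as a term. Leaving out 1 library gave 146 to 338 lower and 20 to 367 higher. Of other plasmacytoid dendritic cell genes, 7 were lower, and 3 at a minimum mean of 50 (fewer genes tested), 4 by FPKM, 3 with no trend or robust fit, and 1 to 5 without 1 library. The 2 endosomal pathway genes called higher were 1 at a pseudocount of 0.25, 0 with no filter, by FPKM or with no trend or robust fit, and 0 to 1 without 1 library. The members' median of -3.87 was -5.24 at a pseudocount of 0.25 and -4.91 to -2.94 without 1 library. Nucb2 turned from -0.85 to 0.55 without B6 and 0.41 without B7, and was -2.25 without A6. Of the 90 values of single members under alternatives, these 2 changed sign, 21 moved by more than 1 SD between replicates and 67 by less. Ratios of A6 to B6 under FPKM, equal totals and median-ratio factors, chosen after seeing the data, stayed within their intervals. Equal totals put the median of all tested genes at 0.08 in place of -0.02. Beyond fewer genes or samples, the cause was not tested. No paired analysis was possible because the columns carry no replicate number. The letter of the column code, which no label explains, pairs A6 with A7 and B6 with B7, and the fit with it as a term is the one given above. Depth limits Tlr9, Tlr7 and Nucb2 most, with 2 to 5 reads in 1 PLZF- library.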
